A study of Homo sapiens with 6 samples.

Results

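The ATP-binding cassette (ABC) transporter genes were examined in LN229 cells, an established human glioblastoma line, with and without overexpression of HSD52, a long non-coding RNA gene. Members were the protein-coding rows of the deposited count table whose symbol is ABC, a subfamily letter from A to G and a number. The rule found 45 genes among the 58735 rows of the table, 19951 of them protein-coding, and it left out 16 rows of similar name, which are pseudogenes and antisense genes. The superfamily genes known under other symbols, such as TAP1 and TAP2, were also outside it. The comparison set 3 libraries with the genotype label HSD52 overexpression (HSD52_OE) against 3 libraries of LN229 cells with the genotype label WT (control), and asked which of these genes differ between them. How HSD52 was introduced, the use of an empty vector in the control, the clonality of the overexpressing cells and the origin of replicates in separate cultures are not stated in the labels. A p-value here sets a difference against the spread of libraries that may be technical replicates.

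ABC proteins share a cytosolic domain that binds and hydrolyses ATP. In most of them a pair of such domains is coupled to membrane-spanning segments and moves a substrate across a membrane, as a single long protein or as a dimer of shorter ones. Subfamilies B, C and G hold the pumps best known for multidrug resistance of tumours and for efflux at the blood-brain barrier. Subfamily A and part of G move lipids and sterols, D members carry fatty acids or cobalamin out of the cytosol or lysosome, and E and F members have no membrane part and act on ribosomes and translation.

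Library totals ranged from 17777157 to 18917790 counts. By these totals, 1 CPM (a count scaled by library size) stands for 17.8 to 18.9 counts. The CPM values below are also scaled for library composition, by factors of 0.9397 to 0.98713 in control and 1.0419 to 1.0476 in HSD52_OE libraries. HSD52 itself had 11, 7 and 12 counts in control and 1252, 1336 and 1327 in HSD52_OE. The quasi-likelihood test of edgeR was run over the 16322 genes that passed the low-count filter, and a gene was called higher or lower in HSD52_OE at a Benjamini-Hochberg adjusted p under 0.05. Of these genes 25.0% were called higher, 25.6% lower and 50.6% in either direction, and of the 13155 protein-coding genes tested 21.4% were called higher and 30.1% lower. The first split rests on the scaling for library composition, since scaling by library totals gave 5337 higher and 2933 lower genes and moved the median of log2 fold changes up by 0.12. Of 8 glioma and astrocyte markers all were detected, GFAP at only 4.83 ± 1.46 CPM in control cells (SD, n = 3). Their summed level, mostly VIM and NES, was 2928 to 3282 CPM in control and 2787 to 2839 CPM in HSD52_OE libraries. Of the 8, 2 were called higher (GFAP and SOX2) and 3 lower (S100B, CD44 and EGFR). EGFR fell by 1.05 ± 0.11 on the log2 scale (standard error, edgeR adjusted p = 2.85e-06). The immune, endothelial and hepatocyte lists summed to at most 2.14, 2.33 and 10.1 CPM in any library, with CD3E, AIF1, ALB and APOB at 0 counts. The neuron list summed to 28.5 to 33.8 CPM in control and 23 to 24.9 CPM in HSD52_OE, with STMN2 at 0, and the epithelial list, nearly all KRT18, to 92 to 111 and 119 to 128 CPM, with CDH1 and KRT5 at 0. A list of long non-coding RNAs held nuclear-retained transcripts and the snoRNA host genes SNHG1 and GAS5. Of its 5 tested genes 4 were higher (MALAT1, NEAT1, KCNQ1OT1 and SNHG1) and 0 lower. The list summed to 287 to 359.5 CPM in control and 803 to 1055 CPM in HSD52_OE, with MEG3 at 0. MALAT1 stood at 62.9 ± 13.2 CPM in control and at 339.9 ± 76.7 CPM in HSD52_OE, and sense intronic genes took 0.0196% to 0.0224% of counts in control against 0.0368% to 0.0405% in HSD52_OE libraries. The part of these differences in the results below was not tested. In bulk RNA a lower level in every cell and a smaller number of expressing cells cannot be told apart.

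Of the 45 members, 37 passed the low-count filter and 8 did not. Of the 37, 9 were called higher and 9 lower, which is 24.3% in each direction, beside 21.4% higher and 30.1% lower among protein-coding genes. ABCC8, ABCA3, ABCA8 and ABCC6 reached the filter's minimum in all 3 HSD52_OE libraries and in 1, 2, 1 and 2 control libraries. They are said here to have passed through HSD52_OE alone, since the control group by itself fell short of the 3 libraries needed. Without these 4 the counts were 8 higher and 9 lower of 33. The share called in either direction, 48.6%, was close to the 51.4% of protein-coding genes. The median log2 fold change of the tested members was 0.06, against -0.06 for protein-coding genes and 0.01 for all genes tested. Changes of at least 2-fold were called for 4 members in the higher direction (ABCB1, ABCA12, ABCC2 and ABCC8, the last of which passed the filter through HSD52_OE alone) and for 1 in the lower (ABCC3, which was just under 2-fold in several alternatives), where such calls made up 5.83% and 3.75% of protein-coding genes and 10.5% and 3.49% of all genes tested. In CPM the groups did not overlap for 12 members higher and 11 lower in HSD52_OE, where 25.7% of protein-coding genes lay apart higher and 34.3% lower, 59.9% in all. Of all genes tested, 29.6% lay apart higher and 29.3% lower, 58.9% in all. The plot of fold changes by role holds higher and lower calls in the drug efflux, lipid and D roles.

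**Figure D1:**
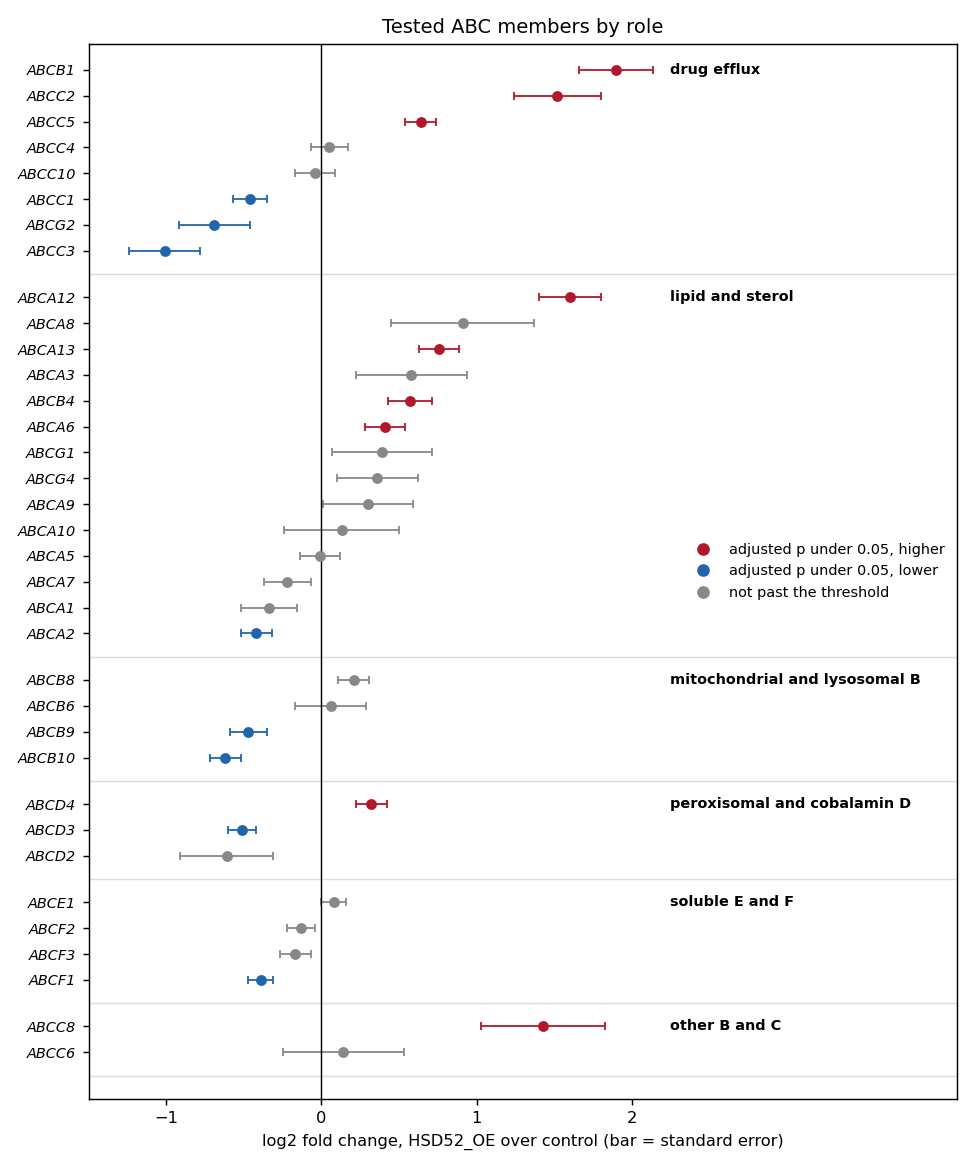
Log2 fold change (HSD52_OE over control, x axis) of 35 tested ABC members, grouped by role, with the standard error as a bar. The 9 higher members run from ABCD4 at 0.32 to ABCB1 at 1.90, and the 8 lower ones shown from ABCF1 at -0.39 to ABCC3 at -1.01.

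The drug efflux members were shown apart. This list held 10 genes, and of its 8 tested members 3 were higher, 3 were lower and 2 did not pass the test, with a median log2 fold change of 0.00. Calls made up 75% of these 8, where 51.4% of all protein-coding genes were called. ABCB1, ABCC2 and ABCC5 rose, and ABCC1, ABCC3 and ABCG2 fell. The summed level of the 10 genes was 203, 176 and 146 CPM in control replicates 1 to 3 and 176, 173 and 166 CPM in HSD52_OE replicates 1 to 3, so that the groups overlapped.

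ABCB1 (ENSG00000085563, chromosome 7, 87503633 to 87713323, minus strand, hg38) encodes P-glycoprotein, the broad-range drug pump of multidrug-resistant tumours and of the blood-brain barrier. It had 80, 45 and 31 counts in control and 204, 228 and 205 counts in HSD52_OE, or 4.67, 2.56 and 1.72 CPM against 11, 11.9 and 10.4 CPM. The HSD52_OE libraries lay close together, the control libraries were spread over a wider ratio, and the lowest HSD52_OE library was above the highest control. ABCB1 was 3.73-fold higher in HSD52_OE, a log2 fold change of 1.90 ± 0.24 (standard error, edgeR adjusted p = 1.79e-05). Its estimate ran from 1.61 without control replicate 3 to 2.36 without control replicate 1 over the 14 alternative analyses, and each of them kept the call.

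ABCC2 (ENSG00000023839, chromosome 10, 99782640 to 99852594, plus strand) encodes an exporter of glutathione and glucuronide conjugates best known from the bile canaliculus of the liver. It had 23, 27 and 15 counts in control and 83, 65 and 55 in HSD52_OE libraries, low levels in both groups and without overlap. ABCC2 was 2.86-fold higher, with a log2 fold change of 1.52 ± 0.28 (edgeR adjusted p = 0.000358). ABCC5 (ENSG00000114770, chromosome 3, 183919934 to 184018015, minus strand) encodes an exporter of cyclic nucleotides, folates and nucleotide analogues. It stood at 31.2, 29.5 and 26.9 CPM in control and 49, 43.5 and 44.2 CPM in HSD52_OE libraries, a narrow spread in each group. ABCC5 rose by 0.64 ± 0.10 on the log2 scale (edgeR adjusted p = 5.8e-05), a smaller change than those of ABCB1 and ABCC2 at a level far above theirs.

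ABCC1 (ENSG00000103222, chromosome 16, 15949577 to 16143074, plus strand) encodes MRP1, which exports glutathione conjugates and many anticancer drugs. It was the most abundant efflux member per length in both groups, at 11.3 ± 2.09 and 8.18 ± 0.157 CPM per kilobase in control and HSD52_OE. The libraries read 103, 82 and 71.4 CPM in control and 60.9, 63.3 and 61.7 CPM in HSD52_OE, with every HSD52_OE library below the lowest control. ABCC1 fell by 0.46 ± 0.11 on the log2 scale (edgeR adjusted p = 0.00262). ABCC3 (ENSG00000108846, chromosome 17, 50634777 to 50692252, plus strand), an exporter of bile salts and glucuronides, read 12.5, 13.3 and 6.33 CPM in control and 5.44, 5.67 and 4.77 CPM in HSD52_OE libraries. Control replicate 3 lay near the HSD52_OE libraries and the other two lay at more than double their level, and ABCC3 was 2.02-fold lower (log2 fold change -1.01 ± 0.23, edgeR adjusted p = 0.00195). It kept its call over the alternatives, with log2 fold changes from -1.29 without control replicate 3 to -0.83 without control replicate 2, so that the 2-fold mark was not always reached. ABCG2 (ENSG00000118777, chromosome 4, 88090264 to 88231322, minus strand) encodes the breast cancer resistance protein, a pump of the blood-brain barrier and of stem-like side populations. It had 69, 61 and 53 counts in control and 31, 45 and 48 in HSD52_OE libraries, without overlap in CPM, and fell by 0.69 ± 0.23 on the log2 scale (edgeR adjusted p = 0.0206). This call was lost without control replicate 1 (edgeR adjusted p = 0.0756), without HSD52_OE replicate 1 (0.0994) and with library totals (0.05, just above the threshold), and over all alternatives the adjusted p ran from 0.0141 to 0.0994.

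ABCC4, an exporter of cyclic nucleotides and nucleoside analogues, read 19.1, 16.7 and 17.1 CPM in control and 20.2, 18.2 and 16.4 CPM in HSD52_OE libraries. Its groups overlapped, and its log2 fold change was 0.05 ± 0.12 (edgeR adjusted p = 0.74). ABCC10, which exports taxanes and other lipophilic drugs, read 27.9, 26.9 and 18.6 CPM against 23.5, 24.6 and 23.2 CPM, with a log2 fold change of -0.04 ± 0.13 (edgeR adjusted p = 0.805) whose sign turned with library totals (0.09). ABCB5, a marker of melanoma-initiating cells, had 2 counts over all control and 6 over all HSD52_OE libraries, and this ratio of 3 had an exact binomial 95% counting interval of 0.536 to 30.3. ABCC11, known from the apocrine glands, had 11 and 12 counts, a ratio of 1.09 (0.44 to 2.72). Neither passed the filter, and no difference was detectable at this depth. Such ratios are scaled by library totals alone, and their intervals cover counting error only.

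**Figure D2:**
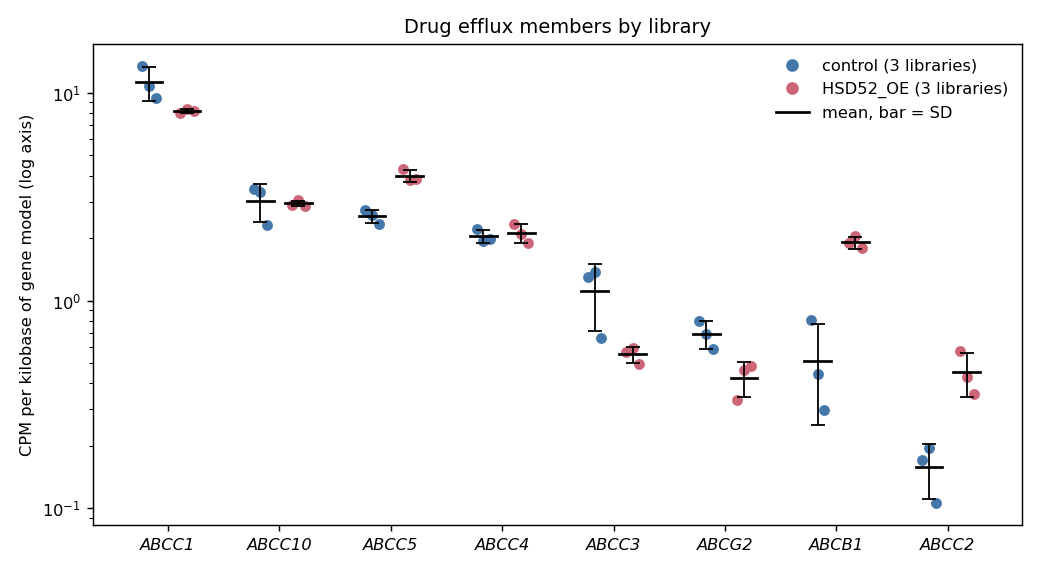
CPM per kilobase of gene model (y axis, log scale) of the 8 tested drug efflux members, ordered by their control mean, with a point for each of 3 control and 3 HSD52_OE libraries, the mean as a line and the SD as a bar. ABCB1 went from 0.514 ± 0.262 to 1.91 ± 0.126 and ABCC2 from 0.158 ± 0.0464 to 0.453 ± 0.108, while ABCC1 went from 11.3 ± 2.09 to 8.18 ± 0.157.

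Per length, the order of the efflux members differed between the groups. In control cells ABCC1 was followed by ABCC10 (3.03 ± 0.633 CPM per kilobase), ABCC5 (2.55 ± 0.188), ABCC4 (2.04 ± 0.147), ABCC3 (1.11 ± 0.395), ABCG2 (0.69 ± 0.108), ABCB1 (0.514 ± 0.262) and ABCC2 (0.158 ± 0.0464). The SD ranges of ABCC10 and ABCC5 met, as did those of ABCC3 and ABCG2 and of ABCG2 and ABCB1. In HSD52_OE cells ABCC1 was followed by ABCC5 (3.98 ± 0.26), ABCC10 (2.94 ± 0.0884), ABCC4 (2.12 ± 0.222), ABCB1 (1.91 ± 0.126), ABCC3 (0.551 ± 0.0484), ABCC2 (0.453 ± 0.108) and ABCG2 (0.426 ± 0.0831). There the SD ranges of ABCC4 and ABCB1 met, and so did those of the last 3.

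Promoter windows of members that moved are shown to let their sequence be set beside their direction. The RefSeq table (GRCh38.p14, the same assembly as hg38) gave windows of 300 bases, from 250 before to 50 after a start, for 35 of the 45 members. ABCC1, ABCC3, ABCB4 and ABCC8 were among the 10 without an entry. Searched on both strands were the GC box GGGCGG, the CCAAT box CCAAT, the TATA box TATAAA and the E-box CACGTG. The last motif was the AP-1-like pattern TGANTCA, a loose form in which N is any base. None of the 5 motifs contains another. The 3 efflux members that rose are printed first, with the inner and outer start of ABCB1, and then 2 members that fell. Capitals mark the matches to any of these 5 motifs.
ABCB1 inner start, chr7:87600835-87601134, minus strand: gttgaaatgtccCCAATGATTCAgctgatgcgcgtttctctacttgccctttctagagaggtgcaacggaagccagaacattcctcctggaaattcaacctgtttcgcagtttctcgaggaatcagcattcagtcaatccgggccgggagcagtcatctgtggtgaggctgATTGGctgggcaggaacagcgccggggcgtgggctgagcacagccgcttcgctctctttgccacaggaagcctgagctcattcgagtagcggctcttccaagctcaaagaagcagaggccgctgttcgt
ABCB1 outer start, chr7:87713246-87713545, minus strand: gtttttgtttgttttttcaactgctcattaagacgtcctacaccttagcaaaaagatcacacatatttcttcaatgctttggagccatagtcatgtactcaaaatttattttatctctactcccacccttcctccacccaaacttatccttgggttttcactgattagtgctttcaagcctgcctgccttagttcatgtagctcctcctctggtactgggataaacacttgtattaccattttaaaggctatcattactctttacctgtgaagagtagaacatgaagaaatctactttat
ABCC2, chr10:99782390-99782689, plus strand: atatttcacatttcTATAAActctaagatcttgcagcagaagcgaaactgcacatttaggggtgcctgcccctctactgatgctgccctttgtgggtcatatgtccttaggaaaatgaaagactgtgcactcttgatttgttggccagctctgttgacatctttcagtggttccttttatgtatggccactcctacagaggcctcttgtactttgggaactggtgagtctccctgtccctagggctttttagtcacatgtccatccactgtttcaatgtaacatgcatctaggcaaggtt
ABCC5, chr3:184017835-184018134, minus strand: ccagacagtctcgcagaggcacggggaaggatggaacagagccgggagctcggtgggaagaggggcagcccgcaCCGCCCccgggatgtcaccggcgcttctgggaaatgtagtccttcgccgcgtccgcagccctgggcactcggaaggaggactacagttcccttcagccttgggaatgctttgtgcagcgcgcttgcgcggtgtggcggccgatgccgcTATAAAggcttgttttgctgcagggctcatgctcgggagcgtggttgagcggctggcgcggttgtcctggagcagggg
ABCD3, chr1:94418139-94418438, plus strand: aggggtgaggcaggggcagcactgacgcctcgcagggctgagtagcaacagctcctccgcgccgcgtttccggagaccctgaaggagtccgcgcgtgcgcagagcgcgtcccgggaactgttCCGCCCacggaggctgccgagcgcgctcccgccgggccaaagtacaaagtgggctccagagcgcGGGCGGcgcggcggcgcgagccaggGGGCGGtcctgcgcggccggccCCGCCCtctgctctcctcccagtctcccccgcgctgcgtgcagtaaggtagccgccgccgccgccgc
ABCB10, chr1:229558658-229558957, minus strand: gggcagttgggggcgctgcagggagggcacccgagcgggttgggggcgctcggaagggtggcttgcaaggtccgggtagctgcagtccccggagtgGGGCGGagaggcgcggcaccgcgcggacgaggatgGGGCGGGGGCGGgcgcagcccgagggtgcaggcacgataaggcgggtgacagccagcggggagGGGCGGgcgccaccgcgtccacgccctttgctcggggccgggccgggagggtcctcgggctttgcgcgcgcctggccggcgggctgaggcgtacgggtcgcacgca

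A GC box was found in a window of 6 of the 6 matched members that fell (ABCA2, ABCB9, ABCB10, ABCD3, ABCF1 and ABCG2) and of 2 of the 7 matched members that rose (ABCC5 and ABCD4), where 45.0% of 35116 RefSeq promoter windows of this length hold one. Several members have more than 1 window, which gives them more chances of a match. The windows of ABCD3 and ABCB10 held 4 GC boxes each and were 75.0% and 77.3% G or C. Those of ABCC2 and of the inner and outer ABCB1 starts held 0, with 45.0%, 55.3% and 37.7% G or C, and that of ABCC5, which rose, held 1 with 65.7%. Among members that fell, ABCF1 held 1 with 68.7%, and windows of ABCG2 held 0 to 2 with 40.3% to 72.3%. A TATA box was found for 3 of the 7 that rose (ABCA12, ABCC2 and ABCC5), for 0 of the 6 that fell, and in 11.5% of all windows. A CCAAT box was found for 3 of the 7 and 1 of the 6, and an AP-1-like match for 1 and 0. An E-box was found for 1 of the 7 (ABCA12) and 3 of the 6 (ABCB9, ABCF1 and ABCG2), where 7.26% of all windows hold an E-box. The inner ABCB1 start held 2 CCAAT boxes and an AP-1-like match, TGATTCA, which overlaps a CCAAT box by 1 base. Of all windows, 34.6% hold a CCAAT box and 7.71% a match to the loose pattern TGANTCA. This inner start lies 112439 bases inside the gene start of the table, and counts per gene do not tell the starts apart. The TATA, CCAAT and E-box matches of ABCA12 lie in a window 106342 bases inside its gene start, and its outer window holds none. The 6 GC boxes of ABCA2 lie in a window 685 bases inside its gene start, and its window at that start holds 0. The GC boxes and E-boxes of ABCG2 lie in windows 72413 and 72463 bases inside its gene start. All windows of ABCB9 lie 6535 to 15186 bases inside. The shares of all windows take in genes of any level. Matched members that fell mostly stood at higher levels than those that rose, and the part of level in these counts was not tested. A match is a run of letters and was not tested as a binding site.

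Lipid and sterol transporters formed the largest role. Of 17 members, 14 were tested, and 4 were higher, 1 lower and 9 not past the threshold, with a median log2 fold change of 0.38. These are 28.6% higher and 7.14% lower, beside 21.4% and 30.1% of protein-coding genes. The tested members include ABCA3 and ABCA8, which passed the filter through the HSD52_OE libraries alone. Their log2 fold changes of 0.58 and 0.91, neither called, lie above the median of the role, so the filter favoured its higher lean. ABCA12 (chromosome 2, 214931542 to 215138428), the ceramide carrier of skin lamellar granules, rose from 2.45, 1.71 and 2 CPM in control to 6.24, 6.61 and 5.89 CPM in HSD52_OE libraries. Both groups were tight and far apart, a 3.04-fold rise (log2 fold change 1.60 ± 0.20, edgeR adjusted p = 8.84e-06). ABCA13, a very large member, rose from 14.5, 10.8 and 12.9 to 23.4, 20.9 and 20.5 CPM (log2 fold change 0.76 ± 0.13, edgeR adjusted p = 0.000134). ABCB4, the phosphatidylcholine floppase of bile and a neighbour of ABCB1 on chromosome 7, rose from 7.65, 7.51 and 6.22 to 10.7, 9.78 and 11.3 CPM (log2 fold change 0.57 ± 0.14, edgeR adjusted p = 0.00346). It moved in the direction of ABCB1 and by less.

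ABCA2, a sterol and sphingolipid transporter of endolysosomes that is abundant in oligodendrocytes, was the lipid member that fell. It read 147, 131 and 107 CPM in control and 97.4, 91.5 and 98.2 CPM in HSD52_OE libraries, without overlap (log2 fold change -0.42 ± 0.10, edgeR adjusted p = 0.00319). ABCA1, which loads cholesterol and phospholipid onto apolipoproteins, read 39.2, 21.9 and 26.8 CPM in control and 25.7, 21.2 and 22.7 CPM in HSD52_OE libraries. Control replicate 1 was high and the other libraries overlapped, and the log2 fold change was -0.34 ± 0.18 (edgeR adjusted p = 0.131). This adjusted p ran from 0.00487 with no low-count filter to 0.598 without control replicate 1. ABCA7, a phospholipid transporter of phagocytic cells, had a log2 fold change of -0.22 ± 0.15 with overlapping groups (edgeR adjusted p = 0.222, and 0.0452 without control replicate 3). ABCG1 and ABCG4, which pass cholesterol to lipoproteins, stood between 0.797 and 2.03 CPM in every library, with log2 fold changes of 0.39 ± 0.32 and 0.36 ± 0.26 (edgeR adjusted p = 0.32 and 0.272). ABCA3, the surfactant lipid transporter of lung, had 9, 13 and 11 counts against 21, 15 and 18 (log2 fold change 0.58 ± 0.36, edgeR adjusted p = 0.196).

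The genes ABCA8, ABCA9, ABCA6, ABCA10 and ABCA5 form an array on chromosome 17 and lie one after another on the minus strand between 68867292 and 69327244. ABCA6 was the only one of them past the threshold. It read 14.4, 11.8 and 16.8 CPM in control and 17.8, 20.8 and 18.8 CPM in HSD52_OE libraries (log2 fold change 0.41 ± 0.13, edgeR adjusted p = 0.0162). This call was lost without control replicate 2 (edgeR adjusted p = 0.0677) and without HSD52_OE replicate 2 (0.081), over a range of 0.00333 to 0.081. ABCA5 at the end of the array had a log2 fold change of -0.01 ± 0.13, positive at 0.12 with library totals, and ABCA9 and ABCA10 had 0.30 ± 0.29 and 0.13 ± 0.37, with edgeR adjusted p of at least 0.42 for the 3. ABCA8 had 6, 6 and 29 counts in control and 32, 26 and 26 in HSD52_OE libraries. Control replicate 3 stood with the HSD52_OE libraries, and the log2 fold change was 0.91 ± 0.46 (edgeR adjusted p = 0.112), against 2.05 without that library (edgeR adjusted p = 0.00145).

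Other members past the threshold are shown library by library in the panels of CPM. The 5 short members of subfamily B in mitochondria and lysosomes were all tested, and 2 fell (40%) and 0 rose. Among protein-coding genes 30.1% were lower and 21.4% higher. ABCB10, of the mitochondrial inner membrane and needed for haem synthesis, read 44.9, 35.6 and 43.2 CPM in control and 26.2, 28.3 and 26.1 CPM in HSD52_OE libraries. ABCB10 fell by 0.62 ± 0.10 on the log2 scale (edgeR adjusted p = 0.00017). ABCB9, a lysosomal peptide transporter, fell from 44.2, 40 and 30 to 27.7, 26.6 and 28 CPM (log2 fold change -0.47 ± 0.12, edgeR adjusted p = 0.00464), but 24.5% of its exon bases in GENCODE 29 are shared with other genes, among them ARL6IP4 and OGFOD2, so its counts are uncertain. ABCB8, of the mitochondrial inner membrane, read 51.1, 54 and 42.7 CPM against 58.8, 56.9 and 55.2 CPM, without overlap and not past the threshold (log2 fold change 0.21 ± 0.10, edgeR adjusted p = 0.0785). It was called higher with library totals (0.34, edgeR adjusted p = 0.00631) and under 3 other alternatives. ABCB6 was at 2.39 ± 0.371 and 2.48 ± 0.283 CPM, and 54.7% of its exon bases are shared with another gene.

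**Figure D3:**
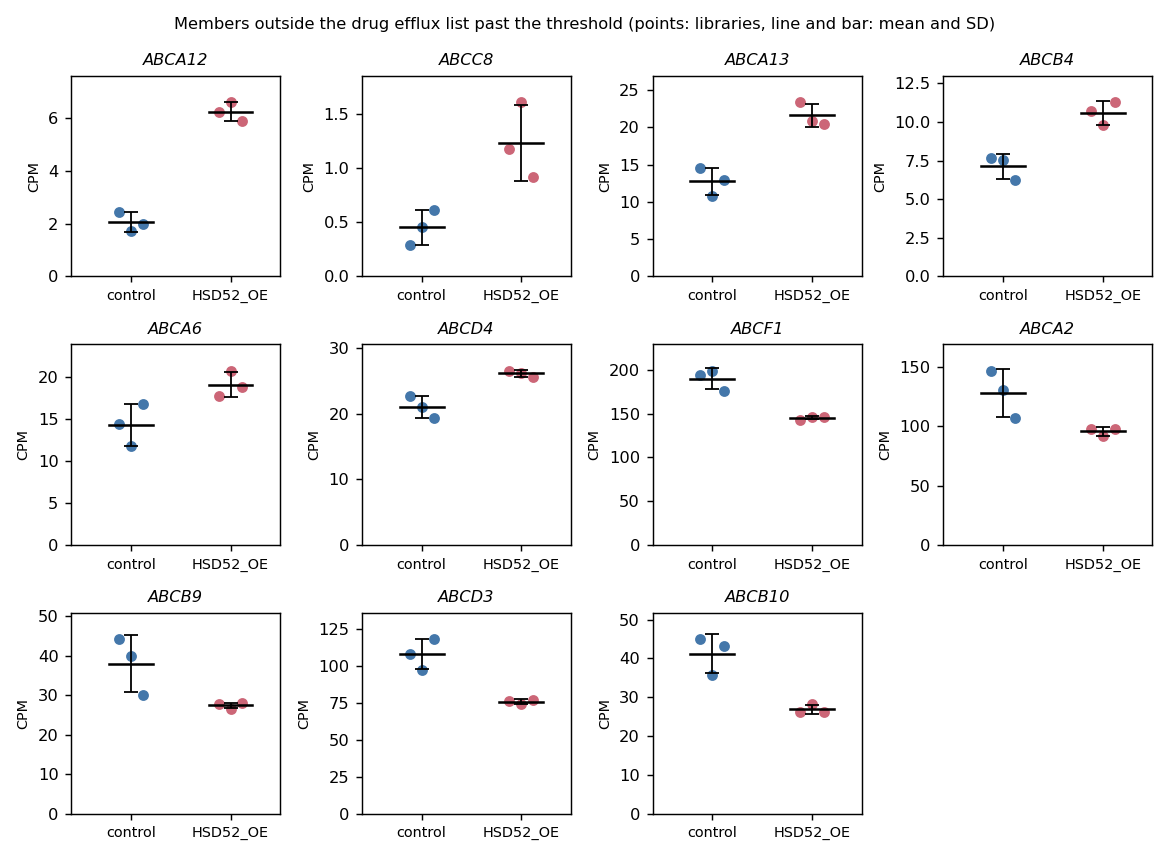
CPM (y axis, from 0) of 11 members outside the drug efflux list that passed the threshold, with a point for each of 3 libraries per group, the mean as a line and the SD as a bar. The first 6 panels, from ABCA12 to ABCD4, are higher in HSD52_OE, and the last 5, from ABCF1 to ABCB10, are lower.

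Peroxisomal and lysosomal members of subfamily D went in both directions. ABCD3, which carries branched fatty acids and bile acid precursors, fell from 108, 97.5 and 118 to 76.4, 74 and 76.9 CPM, by 0.51 ± 0.09 on the log2 scale (edgeR adjusted p = 0.000192). ABCD2, which carries long chain fatty acids into the peroxisome, had 24, 28 and 31 counts in control and 22, 22 and 15 in HSD52_OE libraries (log2 fold change -0.61 ± 0.30, edgeR adjusted p = 0.106). In CPM its groups did not overlap, and it did not pass the threshold. ABCD4, which works in the lysosome and releases cobalamin, rose from 22.7, 21.1 and 19.3 to 26.6, 26.3 and 25.6 CPM (log2 fold change 0.32 ± 0.10, edgeR adjusted p = 0.0161). The call of ABCD4 was lost with no low-count filter (edgeR adjusted p = 0.0622) and without HSD52_OE replicate 1 (0.0714) or 2 (0.0577), over a range of 0.00186 to 0.0714.

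The soluble members ABCF1 and ABCE1 had the highest mean levels of the family per length in both groups. ABCF1, which binds ribosomes and the initiation factor eIF2, stood at 42 ± 2.61 CPM per kilobase in control and 32.1 ± 0.366 in HSD52_OE. Its libraries read 194, 199 and 176 CPM against 143, 146 and 146 CPM, and it fell by 0.39 ± 0.08 on the log2 scale (edgeR adjusted p = 0.00101). ABCE1, which splits ribosomes after termination and during rescue, read 94.7, 98 and 107 CPM against 108, 100.4 and 108 CPM. Its groups overlapped (log2 fold change 0.08 ± 0.08, edgeR adjusted p = 0.444). ABCF2 and ABCF3 had log2 fold changes of -0.13 ± 0.09 and -0.17 ± 0.10 (edgeR adjusted p = 0.227 and 0.186), and ABCF3 had 0.0111 without control replicate 3. ABCF2 shares 45.8% of its exon bases with another gene.

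Of the remaining members of B and C, ABCC8 and ABCC6 were tested. ABCC8, the sulfonylurea receptor that forms the regulatory part of potassium channels sensitive to ATP, had 5, 8 and 11 counts in control and 22, 31 and 18 in HSD52_OE libraries. It passed the low-count filter through the HSD52_OE libraries alone, so that the filter favoured a difference. With no low-count filter its log2 fold change was 1.39 (edgeR adjusted p = 0.00699), against 1.43 ± 0.40 with it (0.00731), and over the alternatives the adjusted p ran from 0.00428 to 0.0541, the highest without HSD52_OE replicate 2. KCNJ11 and KCNJ8, the pore subunits that join such receptors, were at 0.684 ± 0.0664 and 1.74 ± 0.317 CPM in control cells, and KCNJ8 was lower in HSD52_OE (log2 fold change -0.87 ± 0.34, edgeR adjusted p = 0.0416). ABCC6, which controls mineralization of soft tissue through ATP release, had 14, 10 and 11 counts against 18, 13 and 11 (log2 fold change 0.14 ± 0.39, edgeR adjusted p = 0.788). It has near-identical pseudogene copies, of which ABCC6P2 had 7, 7 and 6 against 26, 22 and 26 counts, and how reads were divided between them is not known.

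The 8 members below the filter were ABCB5, ABCC11, ABCA4, ABCG5, ABCG8, ABCB11, ABCC9 and ABCC12. ABCB11, the bile salt export pump, had 5 counts over all control and 19 over all HSD52_OE libraries, a ratio of 3.79 (95% counting interval 1.37 to 13). ABCG8, of the intestinal and hepatic sterol exporter, had 2 and 14 counts, a ratio of 6.99 (1.61 to 63.4), and its partner ABCG5, which shares exon bases with it, had 0 and 4. ABCA4, the retinoid importer of photoreceptors, had 5 and 8, ABCC9, the second sulfonylurea receptor, 0 and 2, and ABCC12 had 1 and 0. A count of 0 in a group allows up to 0.0544 CPM by library totals, before the scaling for composition. The ratios are scaled by library totals alone, and the intervals cover counting error and not the spread between libraries. Over the whole table, 22855 to 23545 genes had a count in control libraries and 26359 to 26755 in HSD52_OE libraries. The part of this wider detection in the ratios was not tested.

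The direction of calls among the members differed by level. Of 14 tested members with a mean of at least 25 CPM over the 6 libraries, 1 was higher (ABCC5) and 7 were lower. Of 10 members between 5 and 25 CPM, 5 were higher and 1 lower, and of 13 below 5 CPM, 3 were higher and 1 lower. The band below 5 CPM holds ABCC8, 1 of its higher calls, and ABCA3, ABCA8 and ABCC6. These members passed the filter through the HSD52_OE libraries alone, so the filter favoured the higher direction in this band's counts and median. Among protein-coding genes the shares were 16.5% higher and 37.3% lower at 25 CPM or more, 24.1% and 26.1% between 5 and 25 CPM, and 32.5% and 13.1% below 5 CPM. The median log2 fold change of the members was -0.36, 0.18 and 0.36 from the upper to the lower band, against -0.12, -0.00 and 0.31 for protein-coding genes. The members' share of higher calls was largest in the middle band, that of protein-coding genes in the lowest band, and the difference was not tested. Levels here come from the libraries that were compared.

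**Figure D4:**
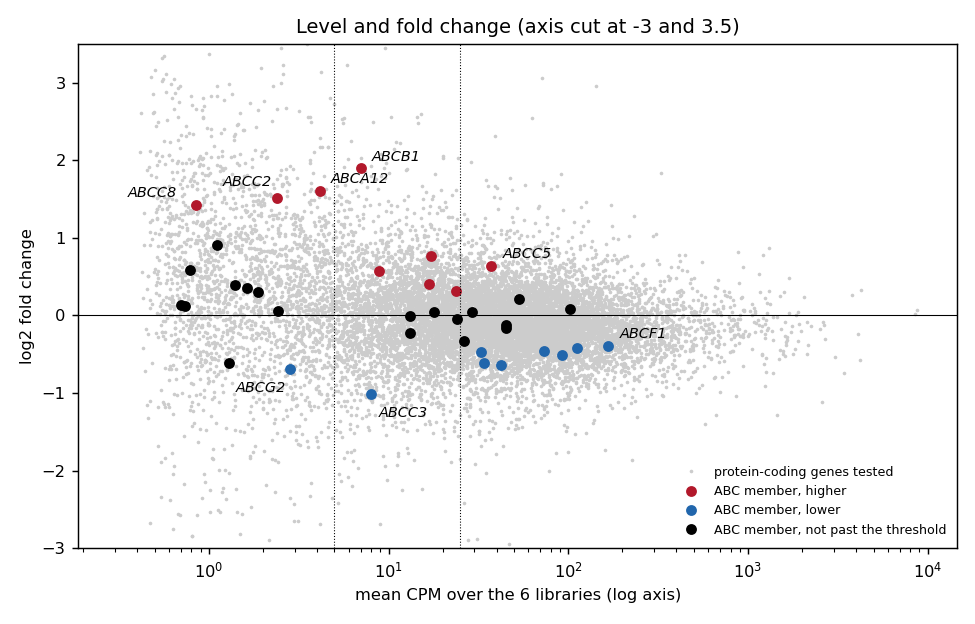
Log2 fold change (y axis, cut at both ends) against mean CPM over the 6 libraries (x axis, log scale) of tested protein-coding genes in grey and ABC members in colour, with dotted lines at 5 and 25 CPM. At 25 CPM or more 7 of 14 members are lower and 1 is higher, and of the 10 called members below 25 CPM all but 2 lie above 0. Among those above 0, ABCC8 passed the low-count filter through HSD52_OE alone.

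Genes around the members are set beside all genes tested, of which 25.0% were called higher and 25.6% lower. Around some members the called neighbours leaned the same way and around others they did not, which was not tested. ABCB1 and ABCB10 had few neighbours each. The shares around ABCB1 were not far from those of all genes, and neither was the lower share around ABCB10, where 0 neighbours were higher. Within 1 Mb of the start of ABCB1 there were 12 other tested genes, of which 4 were higher, ABCB4, CROT, DMTF1 and DBF4, and 2 lower. The median log2 fold change of these neighbours was 0.17, against 1.90 for ABCB1. Around ABCA13 4 of 7 neighbours were higher and 2 lower (median 0.58), and around ABCC2 8 of 20 were higher and 2 lower. Of members that fell, ABCD3 had 6 lower and 2 higher of 13 neighbours, and ABCB10 3 lower and 0 higher of 10. Around ABCC5, 0 of 26 neighbours were higher and 9 lower (median -0.23), and around ABCA12 0 of 7 were higher and 4 lower (median -0.35), opposite to both members. Around ABCA6 0 of 13 were higher and 7 lower. Around ABCC1, which fell, 9 of 20 were higher and 0 lower (median 0.29), and around ABCC3 10 of 35 were higher and 6 lower. In contrast, ABCA7 lay among genes of which 46 of 61 were lower and 5 higher (median -0.61), while it did not pass the threshold itself. ABCB6, also not past the threshold, had 24 lower and 2 higher of 37 neighbours.

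**Figure D5:**
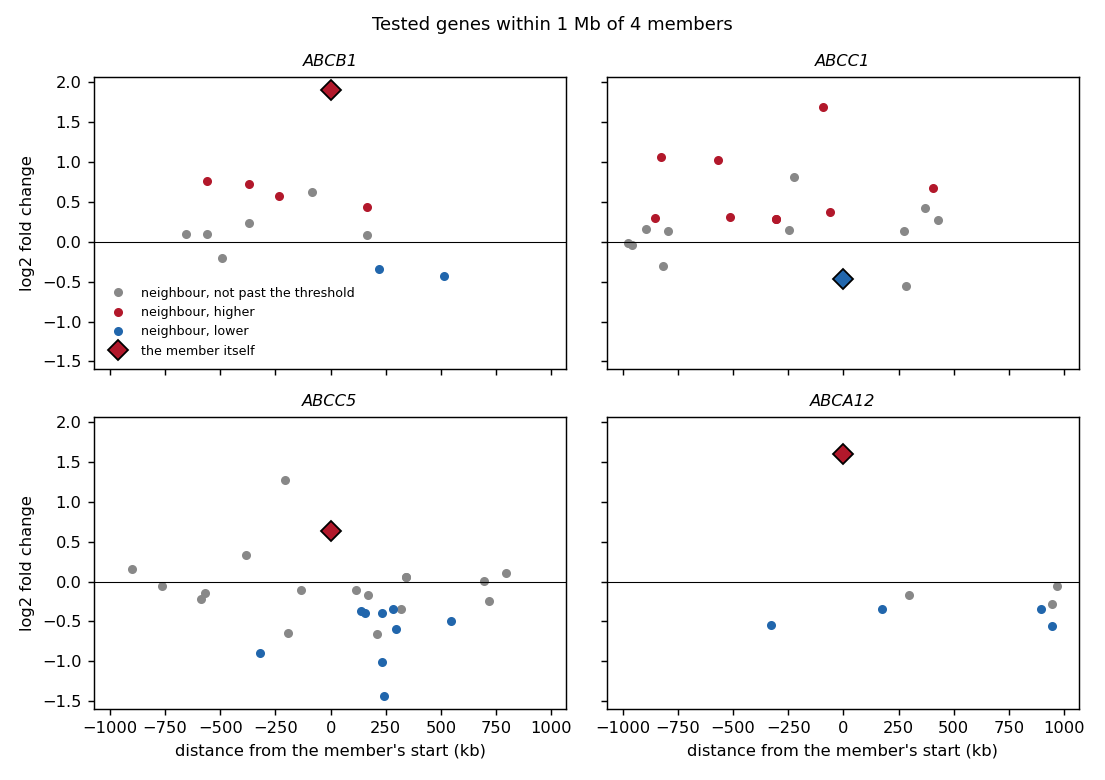
Log2 fold change (y axis) of tested genes within 1 Mb against their distance from the start of ABCB1, ABCC1, ABCC5 and ABCA12 (x axis, kb), with the member itself as a diamond at 0. ABCC5 and ABCA12 are higher among neighbours of which 0 of 26 and 0 of 7 are higher, and ABCC1 is lower among neighbours of which 0 of 20 are lower.

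Genes that work with the family were read from lists of regulators, enzymes and carriers. Of 13 tested nuclear receptors and other regulators of ABC genes, 0 were higher and 8 lower (median log2 fold change -0.34), where 30.1% of protein-coding genes were lower. The xenobiotic receptor AHR and its partner ARNT had log2 fold changes of -0.68 ± 0.10 and -0.70 ± 0.09 (edgeR adjusted p = 7.53e-05 and 1.26e-05), and SREBF2, the regulator of sterol synthesis, fell by 0.61 ± 0.11 (0.000301). NR1H2, the liver X receptor beta, fell by 0.43 ± 0.10 (edgeR adjusted p = 0.0017). NFE2L2, the oxidative stress regulator NRF2, had a log2 fold change of 0.07 ± 0.10, and NR1I2, the pregnane receptor that drives ABCB1 in liver, was too low to be tested. Targets of liver X receptors outside the family went both ways, with 3 of 9 higher (33.3%) and 4 lower (44.4%). PLTP, a phospholipid transfer protein gene, fell from 25.4 ± 5.33 to 5.36 ± 0.64 CPM, FASN and SREBF1 had log2 fold changes of -0.91 and -0.70, and SMPDL3A, APOC1 and MYLIP rose by 0.86, 0.84 and 0.40.

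Glutathione genes make the conjugates that ABCC pumps export. Of 14 tested, 1 was higher (7.14%) and 9 lower (64.3%), with a median log2 fold change of -0.34, beside 21.4% higher and 30.1% lower among protein-coding genes. MGST1 fell from 16.3 ± 1.59 to 7.88 ± 0.215 CPM, MGST3 by 0.70 ± 0.10 and GSTM4 by 0.61 ± 0.09 on the log2 scale (edgeR adjusted p = 8.02e-06, 4.33e-05 and 5.54e-05), and GSTK1 rose by 0.39 ± 0.08 (0.00115). Of 11 tested drug uptake carriers and other efflux genes, 2 were higher (18.2%) and 3 lower (27.3%), shares near those of protein-coding genes. SLC19A1, the reduced folate carrier that takes up methotrexate, fell from 49.3 ± 8.28 to 28.7 ± 1.01 CPM, SLCO3A1 fell by 0.59 ± 0.11 on the log2 scale, and SLC22A4, an ergothioneine carrier, rose from 3.02 ± 0.45 to 6.34 ± 0.705 CPM (edgeR adjusted p = 4.98e-05, 0.000382 and 0.000219). Lipoprotein partners and channel subunits held 1 higher (12.5%) and 3 lower (37.5%) of 8 tested, with the lipoprotein receptors SCARB1 and LRP1 lower by 1.30 ± 0.14 and 1.24 ± 0.17 on the log2 scale and NPC2 higher. Of 15 tested partners of D, E and F members and of iron-sulfur assembly, 2 were higher (13.3%) and 5 lower (33.3%), where 46.7% called in all is near the 51.4% of protein-coding genes. GCN1, whose yeast counterpart binds an ABCF protein, fell by 0.65 ± 0.10, GLRX5 of iron-sulfur assembly by 0.43 ± 0.09, and HBS1L, which works with ABCE1 in ribosome rescue, rose by 0.47 ± 0.09 (edgeR adjusted p = 0.00012, 0.00107 and 0.000572). PEX19, which brings D members to the peroxisome, had a log2 fold change of -0.04 ± 0.08, and its membrane docking factor PEX3 rose by 0.59 ± 0.13. Of the peptide transporter genes TAP1 and TAP2, superfamily members under other names, TAP1 fell by 0.69 ± 0.10 (edgeR adjusted p = 5.66e-05) and TAP2 had 0.15 ± 0.14 (0.377).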

How the data were processed

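RNA sequencing counts of 6 LN229 libraries were used, 3 control and 3 HSD52_OE. Per the labels' protocols, mRNA was selected on poly-T beads and cDNA was primed with random hexamers. The authors deposited raw read counts per gene. The tools named by the submitters' processing notes are CASAVA, HISAT2 2.0.5, featureCounts 1.5.0-p3 and the hg38 build. The sources used here give neither annotation release nor strand setting, so reads of overlapping and antisense genes cannot be told apart. Gene lengths, in the deposited table's unit of bases, and coordinates are the table's own.

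Counts were filtered with filterByExpr, scaled by TMM and tested with edgeR 4.0.16 (quasi-likelihood, robust, 2-sided, R 4.3.3) with group as the single factor, and p was adjusted over every tested gene by Benjamini-Hochberg. CPM values are TMM-scaled and given as mean ± SD (n = 3). CPM per kilobase divides by the gene length of the table. Standard errors are the log2 fold change divided by the root of the F statistic. Exon overlap was read from GENCODE 29. On counts simulated over 16013 genes, the share of changed genes recovered was 71.6% at 1.5-fold, 91% at 2-fold and 100% at 4-fold, and 10.26% of calls were false. Only 67, 67 and 66 genes were changed at these folds, all with a mean of at least 1 CPM. In the data 50.6% of genes were called, so these rates need not hold for this comparison or for members under 1 CPM.

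The members, lists, CPM bands and the neighbour window were chosen with earlier results of these data known. Values are given by rule for every drug efflux member and every other member past the threshold, except that 2 members, counted in the totals, are not reported here one by one. Of each partner list up to 3 genes with the smallest p were named, and other partners and members were added after their values were seen. Alternatives were RLE factors, library totals, no filter beyond 1 count, a minimum of 1 CPM in 3 libraries, a replicate block, limma-voom (limma 3.58.1), DESeq2 1.42.0, protein-coding genes alone, and each library left out.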

Additional observations from a re-analysis of the deposited data

How the results depend on the processing

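Over the 14 alternatives the members called higher numbered 6 (without HSD52_OE replicate 2) to 10 and those called lower 8 to 11, and 14 of the 18 called members kept their direction and call under each of them. The other 4, ABCG2, ABCA6, ABCD4 and ABCC8, lost it under at least 1, and 5 uncalled members (ABCA1, ABCA7, ABCA8, ABCB8 and ABCF3) gained it under at least 1. With a replicate block 10 members were higher and 10 lower, ABCA1 (-0.30, edgeR adjusted p = 0.0199) and ABCA8 (1.05, 0.0254) being added. Same-numbered libraries deviated together by correlations of only 0.031 to 0.038, and the labels do not say that the numbers pair them, although every library correlated best with its own number. Signs turned only for members that were not called, none of them past the threshold under these settings. The log2 fold changes that turned were 0.09 for ABCC10 and 0.12 for ABCA5 with library totals, 0.02 and 0.05 for the same 2 with protein-coding genes alone, and 0.02 for ABCA5 at 1 CPM in 3 libraries. With 1 library left out in turn, the values ran from -0.21 to 0.05 for ABCC10, -0.11 to 0.10 for ABCA5, -0.05 to 0.17 for ABCB6, -0.03 to 0.12 for ABCC4, -0.11 to 0.30 for ABCC6 and -0.00 to 0.28 for ABCA10. The cause was not tested. The minimum of 1 CPM in 3 libraries left the lowest members untested. Depth limited the 8 untested members and those under about 1 CPM, where 3 counts in a library are at most 0.169 CPM by library totals.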
